A study of Mus musculus with 48 samples.

Results

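The AP-1 family is a set of dimeric transcription factors built from Fos, Jun and related basic leucine zipper proteins. Its measured members were taken by gene symbol: Fos, Fosb, Fosl2, Jun, Junb, Jund and Atf3, 7 of the 53345 genes in the expression matrix. RNA-seq was performed on Tregs purified from the spleens of 32 female C57BL/6 mice, 8 to 12 weeks old, with 4 mice in each of 8 groups. Tcons from 16 of the same mice, 2 in each group, were sequenced as well. All mice received 2 intraperitoneal doses of 500 µg of antibody, on the day before IL-2 dosing and on the day of dosing, either an isotype control or an antibody against MHC class II (MHC II block), through which CD4 T cells see antigen. Each mouse then received PBS or 25 µg of human Fc-fused WT IL-2, H16R or 3x mutein subcutaneously, and spleens were taken on day 4. H16R and 3x are attenuated IL-2 variants. Tregs were the fraction bound in CD25 positive selection of a commercial Treg isolation kit, without a Foxp3 gate, and Tcons were the flow-through of that step. The authors stained small aliquots and reported that the large majority of cells were Foxp3-positive in most samples. No mouse was untouched, since the PBS mice received an antibody too.

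Fos and Jun proteins pair through their leucine zippers, and the dimers bind AP-1 sites in promoters and enhancers. In T cells the pathway is driven by antigen receptor and costimulatory signals through MAP kinases, and Fos, Fosb, Jun, Junb and Atf3 are classic immediate early genes whose transcripts appear soon after a stimulus and decay quickly. The same transcripts are also known to rise when cells are taken out of a tissue and handled, as are heat shock transcripts. JunB, with its partner BATF, takes part in effector Treg programs, and JunD is the more constant Jun protein, often opposing growth.

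Library totals ran from 18.3 to 51.2 M expected counts in Tregs and from 31.3 to 52.0 M in Tcons, with the isotype PBS Tregs the shallowest group. The least abundant value among the members was 682 expected counts, for Atf3 in 1 Treg library. The 6 Treg markers (Foxp3, Il2ra, Ctla4, Ikzf2, Tnfrsf18 and Lrrc32) summed to 2745 to 4932 CPM (counts per M of the library's counts, M being the mega prefix) in Treg libraries and 365 to 1580 CPM in Tcon libraries, with isotype WT replicate 2 the highest of the Tcons. Among the Tregs, 2 libraries stood apart in markers of other cells. Isotype PBS replicate 1 had a B cell marker sum of 682 CPM, and MHC II block WT replicate 1 had 624 CPM and a macrophage and monocyte sum of 503 CPM. Some of the results that rest on these libraries are also given without them. The labels give mouse number A2-3 to 2 isotype WT Treg libraries, 3a and 3b here, which were treated as different mice. In GRCm38 (GENCODE vM21) the members lie at chr12:85473890-85477273 (Fos, plus strand), chr7:19302696-19310051 (Fosb, minus strand), chr5:32135801-32157842 (Fosl2, plus strand), chr4:95049034-95052222 (Jun, minus strand), chr8:84974484-84978718 (Junb, minus strand), chr8:70698949-70700616 (Jund, plus strand), chr1:191170296-191218039 (Atf3, minus strand). In bulk RNA, fewer cells that express a gene and less RNA per cell cannot be told apart.

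The promoters of 5 members are shown because these genes moved to different degrees in the comparisons that follow, and because their upstream bases carry related motifs. Each line holds the 250 bases upstream of the RefSeq transcript start in GRCm38.p6, from 5′ to 3′ on the gene's own strand. Capitals mark the motif TGACG, the core shared by cyclic AMP response elements, and in Jun the AP-1-like site TGACATCA.
Fos, chr12:85473640-85473889, plus strand: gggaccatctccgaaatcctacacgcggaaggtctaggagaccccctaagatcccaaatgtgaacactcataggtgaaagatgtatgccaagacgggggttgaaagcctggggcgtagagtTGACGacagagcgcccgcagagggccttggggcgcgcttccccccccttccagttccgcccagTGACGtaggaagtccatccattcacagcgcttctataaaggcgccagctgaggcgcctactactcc
Fosb, chr7:19310046-19310295, minus strand: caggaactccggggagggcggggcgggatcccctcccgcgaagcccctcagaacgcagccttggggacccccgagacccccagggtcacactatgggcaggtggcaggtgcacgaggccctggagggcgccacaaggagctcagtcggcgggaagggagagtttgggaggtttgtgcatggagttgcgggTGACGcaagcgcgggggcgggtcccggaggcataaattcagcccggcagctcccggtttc
Jun, chr4:95052223-95052472, minus strand: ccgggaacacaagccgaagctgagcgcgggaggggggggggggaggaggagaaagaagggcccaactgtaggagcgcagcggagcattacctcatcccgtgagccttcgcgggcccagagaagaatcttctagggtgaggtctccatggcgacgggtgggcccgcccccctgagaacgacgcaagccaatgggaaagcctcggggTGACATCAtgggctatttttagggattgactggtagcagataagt
Junb, chr8:84978749-84978998, minus strand: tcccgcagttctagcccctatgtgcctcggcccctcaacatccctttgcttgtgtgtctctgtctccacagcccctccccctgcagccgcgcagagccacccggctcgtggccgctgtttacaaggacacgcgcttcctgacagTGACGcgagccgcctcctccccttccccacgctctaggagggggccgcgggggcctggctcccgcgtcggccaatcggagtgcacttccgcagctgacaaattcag
Atf3, chr1:191183334-191183583, minus strand: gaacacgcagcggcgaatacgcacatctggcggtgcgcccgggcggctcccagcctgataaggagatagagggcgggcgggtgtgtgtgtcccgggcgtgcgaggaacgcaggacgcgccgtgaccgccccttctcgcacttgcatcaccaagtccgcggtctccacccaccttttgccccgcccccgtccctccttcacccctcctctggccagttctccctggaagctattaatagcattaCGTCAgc

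Searched on both strands, TGACG occurred in 4 of the 7 members' windows, against 17.8% of the 32851 promoters of the same length. It lay 66 to 62 bases before the start in Fos, with a further copy 129 to 125 bases before it, 60 to 56 bases before the start in Fosb, 106 to 102 bases before it in Junb, and 7 to 3 bases before it on the opposite strand in Atf3. TGACATCA occurred in Jun alone among the members, 45 to 38 bases before its start, and in 2.93% of all windows. The consensus AP-1 site TGANTCA (6.75% of all windows), the full element TGACGTCA (1.55%) and the serum response CArG box (1.47%) occurred in the window of no member. TGACG forms part of TGACGTCA, so that the searches overlap, and it was added after the sequences had been read. The starts in the annotation differ for some genes: the GENCODE gene models of Atf3 and Fosl2 begin upstream of these RefSeq starts, and those of Junb and Jund downstream. That of Fosb begins a few bases upstream, inside the window shown. These matches describe the letters in the windows and nothing more.

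Compared per length of transcript, in FPKM, the family spanned a wide range in Tregs of isotype PBS mice. Junb was highest at 2032 ± 119.8 FPKM (SD, n = 4), followed by Jun at 1105 ± 44.5 and Fos at 1060 ± 84.6, which did not differ beyond their spread. Jund at 710.1 ± 139.8 and Fosb at 688 ± 51.0 FPKM also lay within each other's spread. Atf3 at 66.2 ± 6.17 and Fosl2 at 17.0 ± 5.10 FPKM were far lower. Together the members took up 1.34% ± 0.0518 (SD, n = 4) of all expected counts in this group. In WT IL-2, H16R and 3x mice of the isotype arm the share was 1.11% ± 0.0837, 0.974% ± 0.0327 and 0.857% ± 0.0967. With MHC II block it was 1.11% ± 0.0420 in PBS mice and 0.607% ± 0.0672 in 3x mice, the lowest of the 8 groups. For every member the lowest group mean of the 8 was that of MHC II block with 3x, and for every member except Fos the highest was that of isotype with PBS. The share of all genes with these extremes was not counted, so how particular they are to the family cannot be told. Of all genes tested, 38.3% were lower with 3x than with PBS under MHC II block. The ratio of highest to lowest group mean was 6.26 for Atf3, 4.03 for Fosb, 2.56 for Jun, 2.49 for Fosl2, 2.00 for Junb, 1.87 for Jund and 1.70 for Fos. Replicates within a group varied least for Junb (SD 0.10 in log2 CPM, pooled over groups) and most for Atf3 (0.29).

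**Figure D1:**
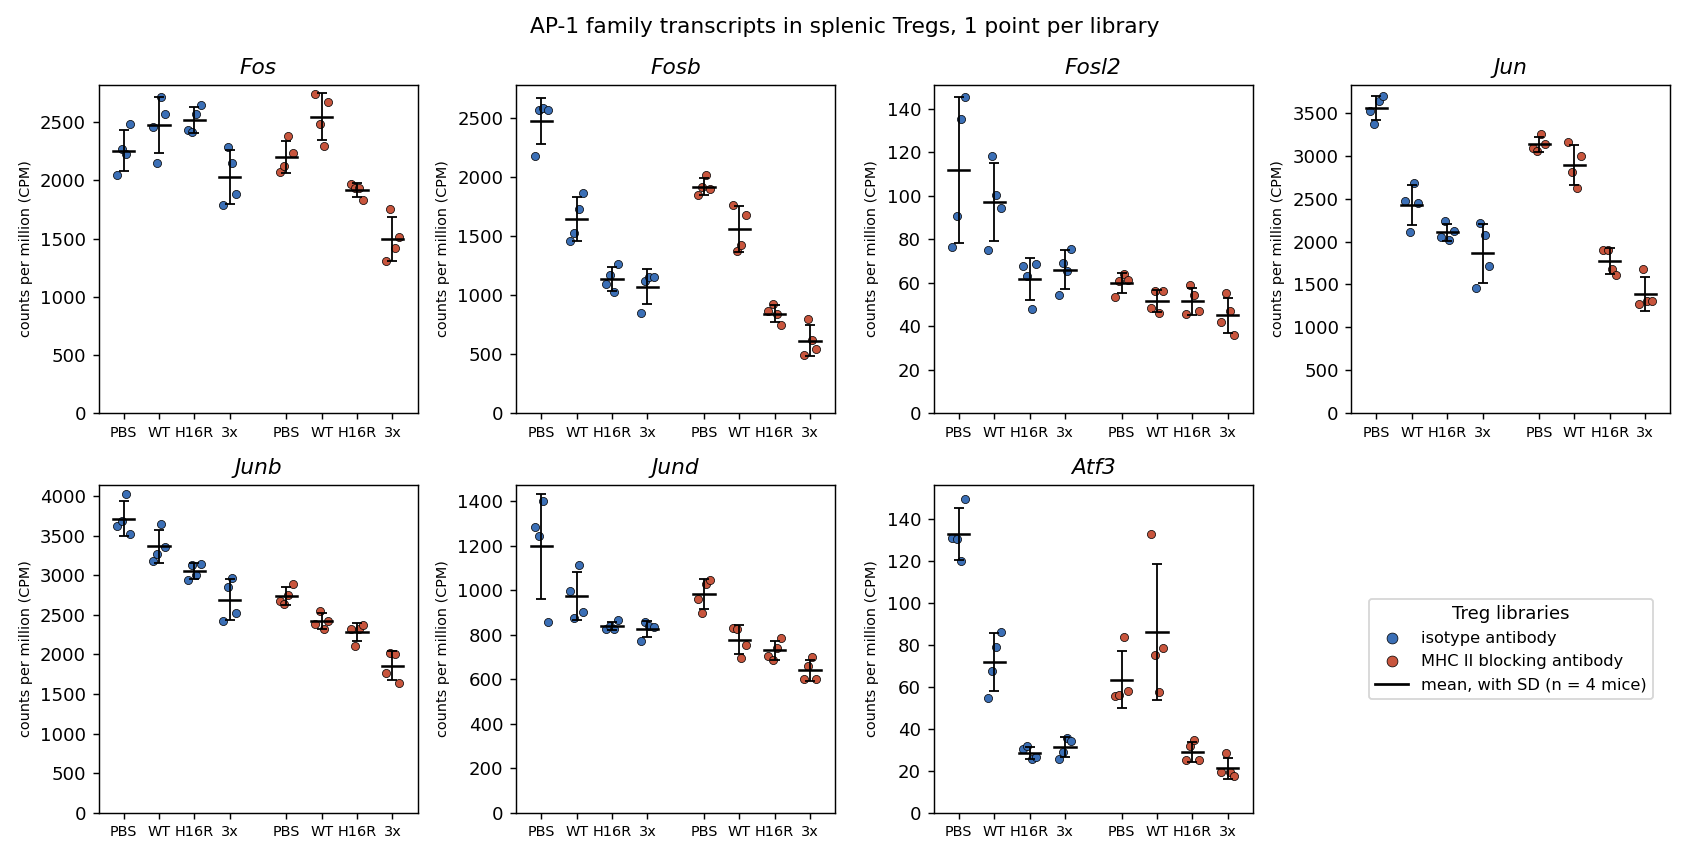
Level of each AP-1 member in CPM (vertical axis, from 0) in the 32 Treg libraries by IL-2 treatment, isotype antibody in blue and MHC II blocking antibody in red. Points are libraries, and bars are the mean with SD of 4 mice. The Fosb mean was 2474 CPM in isotype PBS mice and 614 CPM in MHC II block 3x mice, while the Fos means of the 6 groups other than MHC II block with H16R or 3x lay between 2028 and 2550 CPM.

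The first comparison asked how each IL-2 molecule changed the family in Tregs of mice given isotype antibody. Fosb, an early gene with a strong transactivation domain, fell with all 3 molecules. Fos, the founding member, passed the test only with H16R, at a log2 fold change of 0.23 that did not pass with scaling by library totals, and its estimate with 3x was -0.10. With edgeR's quasi-likelihood test at an adjusted p under 0.1 (Benjamini-Hochberg, 12390 genes), 4 of the 7 members were called with WT IL-2, all lower, 7 with H16R, 1 higher and 6 lower, and 6 with 3x, all lower. The same test called 52.2% (26% higher and 26.2% lower), 64.2% (31.4% higher and 32.8% lower) and 63.6% (31.3% higher and 32.3% lower) of all tested genes in these comparisons. With the muteins 6 of 7 members were lower against 32.8% and 32.3% of genes, and with WT IL-2 the 4 of 7 stood against 26.2%. The median log2 fold change of the members was -0.27, -0.69 and -0.70, beside -0.01, -0.01 and -0.01 for all genes. The 3 comparisons share their PBS libraries and are not independent.

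Fosb stood at 2180, 2566, 2566 and 2582 CPM in the 4 isotype PBS mice. It stood at 1460, 1527, 1727 and 1866 CPM with WT IL-2, 1028, 1091, 1172 and 1262 CPM with H16R and 849, 1122, 1151 and 1155 CPM with 3x. Every IL-2 library was below every PBS library. The log2 fold changes against PBS were -0.55 ± 0.12, adjusted p = 3.24e-04 for WT IL-2, -1.05 ± 0.12, adjusted p = 1.55e-08 for H16R and -1.15 ± 0.12, adjusted p = 3.76e-09 for 3x (estimate ± SE). Fos stood at 2049, 2224, 2270 and 2486 CPM in PBS mice and at 2415, 2435, 2571 and 2651 CPM with H16R, groups that overlapped. Its log2 fold change with H16R was 0.23 ± 0.08, adjusted p = 0.0214, a call that was lost with scaling by library totals (0.16, adjusted p = 0.103). For WT IL-2 it was 0.17 ± 0.08, adjusted p = 0.101 and for 3x -0.10 ± 0.08, adjusted p = 0.330, neither past the threshold. Fosl2, which encodes Fra-2, ranged from 76.3 to 145 CPM with PBS, from 74.9 to 118 with WT IL-2, from 47.8 to 68.5 with H16R and from 54.1 to 75.7 with 3x. It fell with H16R (-0.79 ± 0.16, adjusted p = 1.82e-04) and with 3x (-0.70 ± 0.16, adjusted p = 6.55e-04), and its change with WT IL-2 was -0.17 ± 0.16, adjusted p = 0.425.

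The transcripts of the Jun genes, whose proteins can pair with Fos proteins or with each other, all fell with both muteins. Jun stood at 3370, 3527, 3640 and 3693 CPM in PBS mice and at 2112, 2446, 2472 and 2681 CPM with WT IL-2. It stood at 2014, 2051, 2122 and 2235 CPM with H16R and at 1458, 1711, 2074 and 2211 CPM with 3x, all below the PBS libraries. The log2 fold changes were -0.52 ± 0.10, adjusted p = 9.49e-05, -0.69 ± 0.10, adjusted p = 8.82e-07 and -0.88 ± 0.10, adjusted p = 1.99e-08. Junb, the most abundant member, had the smallest estimates of the 3 Jun genes. It stood at 3517, 3625, 3682 and 4023 CPM with PBS, at 2942, 3002, 3122 and 3146 CPM with H16R and at 2419, 2528, 2847 and 2968 CPM with 3x. The mutein libraries lay below all PBS libraries, with log2 fold changes of -0.22 ± 0.07, adjusted p = 0.00612 for H16R and -0.41 ± 0.07, adjusted p = 6.59e-06 for 3x, and -0.11 ± 0.07, adjusted p = 0.176 for WT IL-2. Jund stood at 858, 1243, 1282 and 1402 CPM with PBS, a spread in which replicate 4 was the low value, and ranged from 773 to 856 CPM with 3x. It fell with WT IL-2 (-0.27 ± 0.10, adjusted p = 0.0288), H16R (-0.45 ± 0.10, adjusted p = 3.46e-04) and 3x (-0.48 ± 0.10, adjusted p = 1.73e-04). Without isotype PBS replicate 3 the WT IL-2 call on Jund was lost (log2 fold change -0.18, adjusted p = 0.155).

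Atf3, a stress-inducible member that forms dimers with Jun proteins, had the largest change of the family. It stood at 119.7, 130.2, 131 and 149 CPM in isotype PBS mice and at 54.6, 67.5, 78.7 and 86.3 CPM with WT IL-2. It stood at 25.6, 26.7, 30.5 and 31.6 CPM with H16R and at 25.8, 29.1, 34.2 and 35.8 CPM with 3x. The 4 PBS libraries were above all others and the mutein libraries below all WT IL-2 libraries. The log2 fold changes were -0.85 ± 0.19, adjusted p = 6.06e-04, -2.15 ± 0.20, adjusted p = 5.37e-10 and -2.02 ± 0.20, adjusted p = 1.65e-09, so that Atf3 was 0.226 times its PBS level with H16R.

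Other readouts moved along with these falls. The 10 heat shock genes summed to 6479 to 7870 CPM in isotype PBS Tregs and 5045 to 5445 CPM with 3x, and 9 of the 10 fell with each mutein, beside 32.8% of all genes lower with H16R and 32.3% with 3x, Hspa1a by a log2 fold change of -4.18 with 3x. Treg markers summed to 2972 to 3585 CPM with PBS, 4419 to 4932 CPM with WT IL-2, 4631 to 4729 CPM with H16R and 4524 to 4683 CPM with 3x. Plasma cell markers (Jchain, Sdc1 and Mzb1) summed to 1519 to 1844 CPM with PBS and 81.4 to 176 CPM with 3x. The 6 B cell markers summed to 123 to 682 CPM with PBS and 30.2 to 41.1 CPM with 3x. Macrophage and monocyte markers summed to 16.1 to 90.8 CPM with PBS and 17.9 to 23.5 CPM with 3x. No Treg, plasma cell or B cell marker was at 0 in any Treg library, and of the macrophage markers Fcgr1 was at 0 in 13 of the 32. Dendritic cell markers had medians of 32.5 CPM with PBS and 7.29 CPM with H16R, NK cell markers 43.0 and 12.9 CPM, and neutrophil markers 9.30 and 0.169 CPM. Each of the 4 neutrophil markers was at 0 in at least 1 Treg library, and so few counts leave these low sums imprecise. The part of these shifts in the AP-1 result was not tested. Leaving out isotype PBS replicate 1 and MHC II block WT replicate 1 together, a choice made after seeing the data, gave 4, 7 and 6 calls again.

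**Figure D2:**
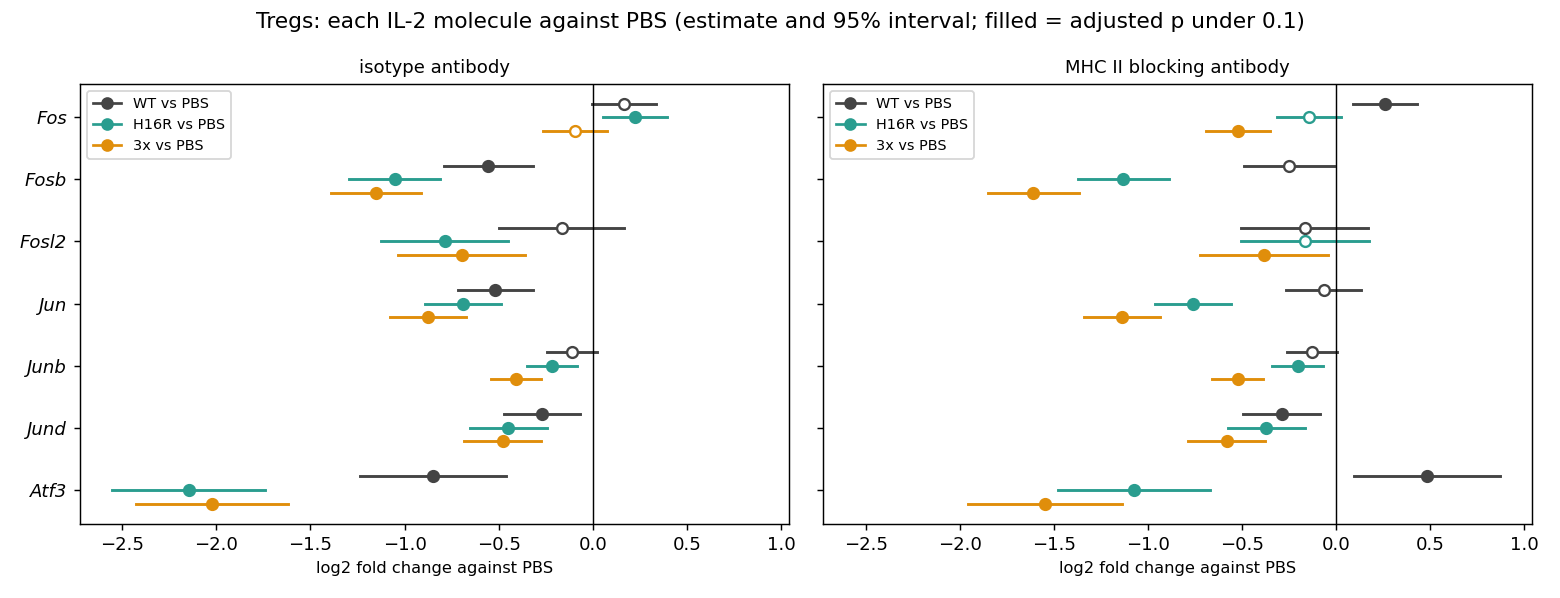
Log2 fold change of each member against PBS in Tregs (horizontal axis), under isotype antibody on the left and MHC II blocking antibody on the right, for WT IL-2 (dark grey), H16R (green) and 3x (orange). Points are edgeR estimates with 95% intervals, filled where the adjusted p was under 0.1. With 3x and MHC II block all 7 members were lower, from -0.38 for Fosl2 to -1.61 for Fosb.

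The same question was then put in mice given the MHC II blocking antibody. With 3x all 7 members fell, Fos included. With WT IL-2, 3 passed the threshold, Fos and Atf3 higher and Jund lower, and with H16R 5 did, all lower. In the order WT IL-2, H16R and 3x, the background was 35.6% (21.9% higher and 13.7% lower), 66.5% (32.7% higher and 33.8% lower) and 73% (34.7% higher and 38.3% lower) of genes, again from comparisons that share 1 PBS group. The members' median log2 fold change was -0.13, -0.37 and -0.58, beside 0.02, -0.02 and -0.04 for all genes. Other readouts differed here too. Treg markers summed to 3136 to 3386 CPM with PBS, 2745 to 3790 CPM with WT IL-2, 4130 to 4502 CPM with H16R and 4373 to 4853 CPM with 3x. Macrophage and monocyte markers summed to 14.0 to 21.0 CPM with PBS, 24.2 to 503 CPM with WT IL-2, 32.4 to 56.7 CPM with H16R and 45.4 to 62.4 CPM with 3x, each above PBS without overlap. The heat shock sums were 5677 to 6462 CPM with PBS and lower with each molecule, without overlap, at 4804 to 5581 CPM with 3x. The part of these shifts in the AP-1 values was not tested.

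Fos stood at 2069, 2125, 2236 and 2380 CPM in MHC II block PBS mice, at 2297, 2489, 2673 and 2741 CPM with WT IL-2 and at 1830, 1931, 1937 and 1967 CPM with H16R. With 3x it stood at 1308, 1418, 1516 and 1753 CPM, below every library of the other 3 groups of this arm. Its log2 fold changes were 0.26 ± 0.08, adjusted p = 0.0203 for WT IL-2, -0.14 ± 0.08, adjusted p = 0.138 for H16R and -0.52 ± 0.08, adjusted p = 3.61e-06 for 3x. Fosb stood at 1844, 1897, 1918 and 2014 CPM with PBS and at 495, 541, 621 and 798 CPM with 3x, the deepest fall of the arm (-1.61 ± 0.12, adjusted p = 3.00e-12), and it fell with H16R as well (-1.13 ± 0.12, adjusted p = 4.10e-09). With WT IL-2 its change was -0.25 ± 0.12, adjusted p = 0.106, and without MHC II block WT replicate 1 it passed the threshold (-0.32 ± 0.12, adjusted p = 0.0558). Fosl2 was already low in PBS mice of this arm, at 53.6 to 64.1 CPM, and reached 35.7 to 55.1 CPM with 3x (-0.38 ± 0.17, adjusted p = 0.0433), a call lost without MHC II block 3x replicate 4 (-0.29, adjusted p = 0.154).

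Jun stood at 3052, 3091, 3134 and 3249 CPM with PBS and at 2621, 2807, 2996 and 3158 CPM with WT IL-2, groups that overlapped (-0.07 ± 0.10, adjusted p = 0.653). It stood at 1614, 1682, 1900 and 1903 CPM with H16R and at 1268, 1302, 1306 and 1681 CPM with 3x. Both mutein groups were below all PBS and WT IL-2 libraries, with log2 fold changes of -0.76 ± 0.10 and -1.14 ± 0.10 against PBS. Junb fell by 0.20 ± 0.07 on the log2 scale with H16R and by 0.52 ± 0.07 with 3x, where it stood at 1643, 1765, 1999 and 2021 CPM against 2630, 2668, 2749 and 2893 CPM with PBS. Jund fell with each molecule, by 0.29 ± 0.10, 0.37 ± 0.10 and 0.58 ± 0.10 on the log2 scale with WT IL-2, H16R and 3x. The WT IL-2 call on Jund was lost without MHC II block WT replicate 3 (adjusted p = 0.105).

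Atf3 stood at 55.6, 56.3, 58.0 and 83.6 CPM in MHC II block PBS mice and at 57.5, 75.0, 78.7 and 133 CPM with WT IL-2, where replicate 1 was the high value. The rise with WT IL-2 (0.48 ± 0.19, adjusted p = 0.0585) did not pass the threshold without that library (0.19 ± 0.17, adjusted p = 0.418), the library with the most macrophage markers, or without MHC II block PBS replicate 1, 2 or 4. It stood at 25.0, 25.0, 31.7 and 34.5 CPM with H16R and at 17.3, 19.2, 19.7 and 28.5 CPM with 3x, and both falls passed (-1.07 ± 0.20, adjusted p = 3.66e-05 and -1.55 ± 0.20, adjusted p = 1.07e-07).

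Whether an IL-2 effect differed between the antibody arms was tested directly as an interaction, the log2 fold change under MHC II block minus that under isotype. For WT IL-2, 2 of the 7 members were called, for H16R 3 and for 3x 2, beside 19.6%, 19.1% and 39% of all genes. With WT IL-2 the effect on Jun was higher under MHC II block (0.45 ± 0.14, adjusted p = 0.0251), as was that on Atf3 (1.33 ± 0.27, adjusted p = 0.00114). Without MHC II block WT replicate 1 the difference for Atf3 was 1.04 ± 0.22, adjusted p = 0.00273, and for Jun it was 0.40 ± 0.14, adjusted p = 0.0611. With H16R the effect was higher under block for Atf3 (1.07 ± 0.28, adjusted p = 0.0130) and Fosl2 (0.62 ± 0.23, adjusted p = 0.0814) and lower for Fos (-0.37 ± 0.12, adjusted p = 0.0403). The Fosl2 difference was lost when any of 9 single libraries was left out. For Atf3 and Fosl2 the PBS level itself differed between arms, while the H16R levels of Atf3 gave no difference past the threshold (-0.00 ± 0.20, adjusted p = 0.989, 95% interval -0.41 to 0.40). With 3x the effect was lower under block for Fos (-0.42 ± 0.12, adjusted p = 0.00808) and Fosb (-0.46 ± 0.16, adjusted p = 0.0358). Junb and Jund were called in none of the 3 interactions, with estimates between -0.12 and 0.08.

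Set against each other at the same dose and day, the molecules differed in one direction among the members. Of 42 member comparisons 25 were called, all of them lower in the mutein than in WT IL-2, or lower in 3x than in H16R. Within an arm the 3 comparisons share groups, and that of 3x with WT IL-2 follows from the others, so they are not independent. In isotype mice H16R gave lower levels than WT IL-2 for 3 members (18.6% of all genes called, 9.77% lower), 3x gave lower levels than WT IL-2 for 6 (34.7% of all genes called, 17.7% lower) and 3x gave lower levels than H16R for 2 (11.5% of all genes called, 5.77% lower). Under MHC II block the numbers were 4 (57.5% of all genes called, 32% lower), 6 (68.7% of all genes called, 38.7% lower) and 4 (25.2% of all genes called, 12.6% lower). Between H16R and WT IL-2, Atf3 differed by -1.30 ± 0.20 on the log2 scale in isotype mice (adjusted p = 1.68e-04) and Fosb by -0.50 ± 0.12 (adjusted p = 0.00612). The Junb call between 3x and H16R in isotype mice (-0.19 ± 0.07, adjusted p = 0.0725) was lost when any of 5 single libraries was left out. The muteins were not told apart in isotype mice for Atf3 (3x against H16R 0.12 ± 0.20, adjusted p = 0.795, 95% interval -0.28 to 0.53) or Fosb (-0.10 ± 0.12, adjusted p = 0.696, 95% interval -0.34 to 0.14). Under MHC II block Fosb was lower with 3x than with H16R (-0.48 ± 0.12, adjusted p = 0.00481), as were Fos (-0.38 ± 0.08, adjusted p = 0.00215), Jun (-0.38 ± 0.10, adjusted p = 0.00749) and Junb (-0.32 ± 0.07, adjusted p = 0.00118). Against WT IL-2 in that arm, 3x gave its largest differences for Atf3 (-2.03 ± 0.20), Fosb (-1.36 ± 0.12) and Jun (-1.07 ± 0.10), and without MHC II block WT replicate 1 the value for Atf3 was -1.74 ± 0.17, adjusted p = 4.09e-09. Fosl2 was not told apart from WT IL-2 by either mutein under block (0.00 ± 0.17 for H16R, 95% interval -0.34 to 0.34, and -0.21 ± 0.17 for 3x). Other readouts differed between WT IL-2 and 3x too. Under block Treg markers summed to 2745 to 3790 and 4373 to 4853 CPM, and plasma cell markers to 1559 to 3178 and 584 to 1368 CPM. In isotype mice the heat shock sums were 6021 to 7292 and 5045 to 5445 CPM. Plasma cell markers there summed to 631 to 766 and 81.4 to 176 CPM, while Treg markers overlapped. The part of these shifts was not tested.

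The second axis of the design was the antibody, compared within each treatment. Members were lower with MHC II block far more often than higher. In PBS mice 5 of the 7 members were lower, in WT IL-2 mice 3 were lower and 1 higher, in H16R mice 5 were lower and in 3x mice all 7 were lower. The background was 14.1% (6.01% higher and 8.13% lower), 33.5% (18.2% higher and 15.3% lower), 30.7% (15.4% higher and 15.2% lower) and 54.1% (27.2% higher and 26.9% lower) of genes. The members' median log2 fold change was -0.39, -0.08, -0.29 and -0.58, beside -0.01, 0.01, 0.00 and 0.00 for all genes.

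Junb was lower in all 4 treatments. In PBS mice it stood at 2630, 2668, 2749 and 2893 CPM with block against 3517, 3625, 3682 and 4023 CPM with isotype. The libraries of the 2 antibodies did not overlap in PBS, WT IL-2, H16R or 3x mice. The differences on the log2 scale were -0.46 ± 0.07, -0.48 ± 0.07, -0.45 ± 0.07 and -0.58 ± 0.07, with adjusted p-values from 9.26e-08 to 3.71e-05. Jund was lower in the 4 treatments too, by 0.23 ± 0.10 to 0.41 ± 0.10 on the log2 scale. Its H16R value sat at the threshold (adjusted p = 0.0971) and was lost under most alternatives, and its PBS value was lost without isotype PBS replicate 1 or 3, or without MHC II block PBS replicate 1 or 2 (adjusted p up to 0.198). Jun was lower with block in H16R mice (-0.27 ± 0.10, adjusted p = 0.0429) and 3x mice (-0.46 ± 0.10, adjusted p = 3.52e-04), and higher in WT IL-2 mice (0.25 ± 0.10, adjusted p = 0.0580). That rise was lost without MHC II block WT replicate 1 (0.20 ± 0.10, adjusted p = 0.175) and also without isotype WT replicate 2 or MHC II block WT replicate 4, and the H16R call was lost without H16R replicate 2 of the isotype arm or replicate 3 or 4 of the block arm.

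Among the Fos genes, Fosl2 had the largest estimates in PBS and WT IL-2 mice. In PBS mice it stood at 53.6, 61.0, 61.1 and 64.1 CPM with block and 76.3, 90.6, 135 and 145 CPM with isotype, without overlap, and in WT IL-2 mice at 46.1, 48.3, 56.0 and 56.2 and 74.9, 94.6, 101 and 118 CPM. It was lower by 0.91 ± 0.17 (adjusted p = 6.49e-04) and 0.92 ± 0.16 (adjusted p = 1.39e-04) on the log2 scale in those mice, and by 0.60 ± 0.16 in 3x mice. Fos gave no difference past the threshold in PBS mice (-0.05 ± 0.08, adjusted p = 0.744, 95% interval -0.22 to 0.12) or WT IL-2 mice (0.04 ± 0.08), and was lower with block in H16R mice (-0.42 ± 0.08, adjusted p = 8.84e-04) and 3x mice (-0.48 ± 0.08, adjusted p = 4.30e-05). Fosb was lower in PBS, H16R and 3x mice, by 0.39 ± 0.12, 0.46 ± 0.12 and 0.84 ± 0.12 on the log2 scale. Atf3 was lower with block in PBS mice (-1.08 ± 0.19, adjusted p = 5.03e-04), where the 4 block libraries were below the 4 isotype libraries, and in 3x mice (-0.60 ± 0.20, adjusted p = 0.0147).

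**Figure D3:**
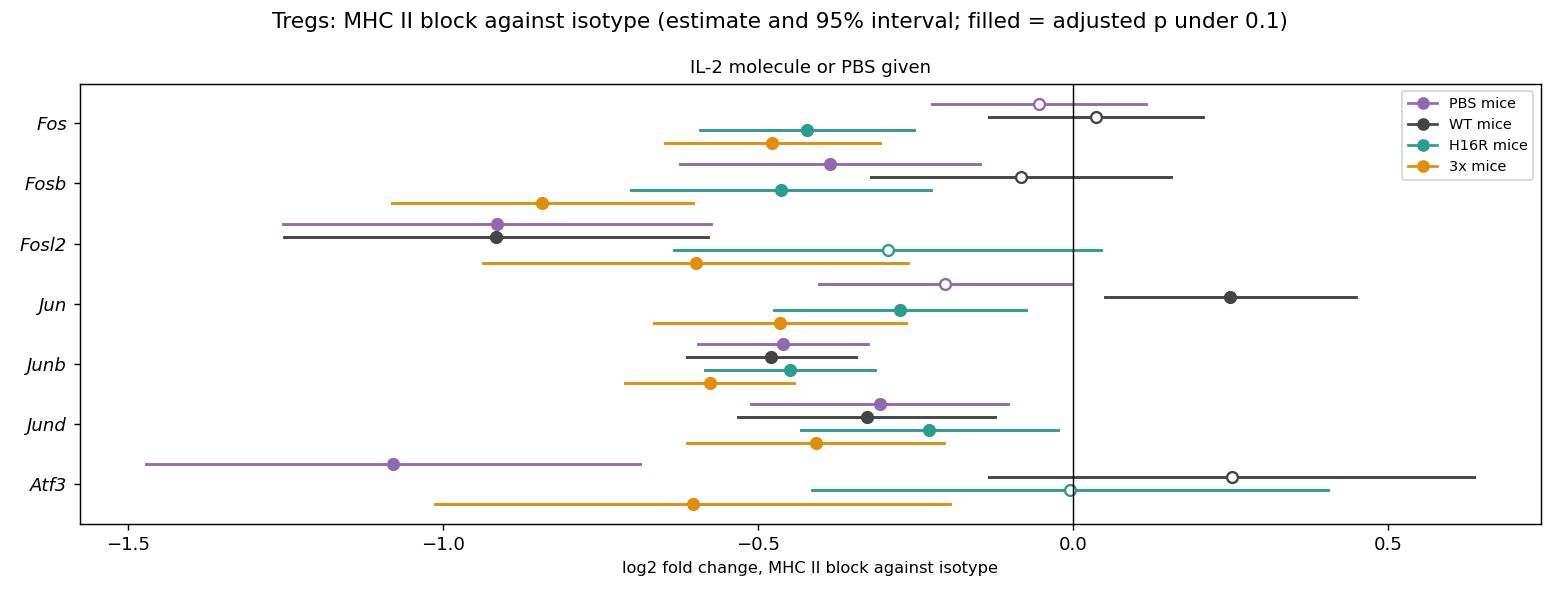
Log2 fold change of each member in Tregs under MHC II block against isotype (horizontal axis), by treatment: PBS (purple), WT IL-2 (dark grey), H16R (green) and 3x (orange). Points are edgeR estimates with 95% intervals, filled where the adjusted p was under 0.1. Junb lay between -0.58 and -0.45 in all 4 treatments, and Fosl2 was at -0.91 in PBS mice.

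Other readouts differed between the antibodies too. Of the 10 heat shock genes, 7, 7, 5 and 3 were lower with block in PBS, WT IL-2, H16R and 3x mice and none was higher, beside 8.13%, 15.3%, 15.2% and 26.9% of all genes lower. Their sums with isotype and with block were 6479 to 7870 and 5677 to 6462 CPM in PBS mice, and 6021 to 7292 and 5109 to 5655 CPM in WT IL-2 mice. They were 5334 to 5931 and 4816 to 5264 CPM in H16R mice, without overlap in these treatments. In 3x mice they overlapped, at 5045 to 5445 and 4804 to 5581 CPM. In mice given WT IL-2, H16R or 3x the summed levels of plasma cell, macrophage and monocyte, dendritic cell and NK cell markers were higher in every block library than in any isotype library of the same treatment. Plasma cell markers had medians of 106 CPM with isotype and 902 CPM with block in 3x mice, and 320.0 and 949 CPM in H16R mice and 676 and 2463 CPM in WT IL-2 mice. In WT IL-2 mice macrophage and monocyte markers summed to 13.8 to 21.8 CPM with isotype and 24.2 to 503 CPM with block. In 3x mice the medians with isotype and with block were 20.8 and 51.8 CPM for macrophage and monocyte markers, 7.90 and 28.7 CPM for dendritic cell markers, and 15.1 and 31.1 CPM for NK cell markers. In PBS mice the plasma cell medians were 1768 and 1569 CPM. Treg markers were lower with block without overlap in WT IL-2 mice (2745 to 3790 against 4419 to 4932 CPM) and H16R mice (4130 to 4502 against 4631 to 4729 CPM). The 6 T cell markers were also lower in WT IL-2 mice (2565 to 3223 against 3436 to 3658 CPM). The part of these shifts in the antibody differences and in the interactions was not tested.

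Tcons of the same spleens were compared as a second CD4 T cell fraction. In a fit over both arms, Fosb fell with each molecule, Jun and Jund fell with H16R, and Jund fell with 3x. Fosb stood at 1796 and 2139 CPM in isotype PBS Tcons and 1715 and 1769 CPM in MHC II block PBS Tcons. It stood at 749.9 and 820.2 CPM and 662 and 767 CPM with 3x in those arms, all 4 below all PBS Tcons. Its log2 fold changes were -0.37 ± 0.09, adjusted p = 0.0197 for WT IL-2, -0.84 ± 0.09, adjusted p = 2.07e-04 for H16R and -1.31 ± 0.09, adjusted p = 2.10e-05 for 3x. The numbers called were 1, 3 and 2 of 7, beside 27.2%, 31.1% and 9.88% of the 12529 genes tested. The H16R call on Jun was lost when any of 5 single Tcon libraries was left out, and the 3x call on Jund when any of 10 was. Calls numbered 6 of 21 here but 11 with DESeq2. A fit with a mean for each of the 8 Tcon groups, chosen after seeing the data, gave 13. In that fit Jun changed with WT IL-2 by -0.34 ± 0.11 under isotype (adjusted p = 0.0887) and 0.17 ± 0.11 under block (adjusted p = 0.291). In the fit over both arms Junb did not pass the threshold with any molecule in Tcons (0.08 ± 0.09, 0.04 ± 0.09 and 0.06 ± 0.09). With MHC II block Fosl2 was lower (-0.79 ± 0.09, adjusted p = 2.74e-04) as was Junb (-0.38 ± 0.06, adjusted p = 0.00439), 2 of 7 members beside 28.9% of genes. Fosl2 ranged from 56.2 to 63.0 CPM in block PBS Tcons and from 97.4 to 113 CPM in isotype PBS Tcons. In the same PBS Tcons B cell markers summed to 154 to 160.4 CPM with block and 900.2 to 1024 CPM with isotype, and dendritic cell markers to 36.3 to 38.7 and 106 to 149.6 CPM. With each IL-2 molecule dendritic cell markers were higher with block than with isotype, at 151 to 172 and 52.2 to 52.3 CPM with 3x. Other readouts of Tcons also differed between IL-2 and PBS. Under isotype, B cell markers were lower with each molecule, at 357 to 451 CPM with 3x. Treg markers there summed to 462 to 524 CPM with PBS and 808 to 824 CPM with H16R. The heat shock sums there were 6147 to 6433 CPM with PBS and 5128 to 5157 CPM with 3x. Under block B cell markers summed to 144 to 176 CPM with 3x, overlapping PBS. The part of these readouts in the Tcon results was not tested.

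Between Tregs and Tcons of the same mice, with both antibody arms together, Junb was the member called in all 4 treatments. It was higher in Tregs each time, with log2 differences of 0.62 ± 0.05, adjusted p = 1.11e-07 in PBS mice, 0.45 ± 0.05, adjusted p = 2.73e-06 with WT IL-2, 0.39 ± 0.05, adjusted p = 8.88e-06 with H16R and 0.14 ± 0.05, adjusted p = 0.0272 with 3x. Scaling by library totals moved the median of all genes by -0.11 on the log2 scale in the H16R comparison, and with that scaling the 3x value of Junb no longer passed (0.05, adjusted p = 0.436). In isotype PBS mice Junb stood at 2201 and 2249 CPM in the 2 Tcon libraries and at 3517 to 4023 CPM in Tregs. Fos was higher in Tregs with WT IL-2 (0.29 ± 0.09, adjusted p = 0.0130), H16R (0.53 ± 0.09, adjusted p = 1.17e-04) and 3x (0.25 ± 0.09, adjusted p = 0.0226). Jun was lower in Tregs with H16R (-0.19 ± 0.08, adjusted p = 0.0360) and 3x (-0.54 ± 0.08, adjusted p = 1.49e-05), and Fosl2 with 3x (-0.31 ± 0.09, adjusted p = 0.00495). The H16R call on Jun was lost without the MHC II block H16R mouse 1 and the 3x call on Fos without the isotype 3x mouse 2. The 3x call on Junb was lost without the MHC II block 3x mouse 1 (adjusted p = 0.103). The number of members called was 1, 3, 4 and 5 of 7 in PBS, WT IL-2, H16R and 3x mice, beside 50.3%, 63.5%, 70.4% and 71.2% of the 12845 genes tested. Of the 13 calls 7 were higher in Tregs and 6 lower, and with scaling by library totals 5 of 15 were higher and 10 lower. Markers of other cells differed between the fractions. Over all 32 Treg and 16 Tcon libraries, the median sums were 69.6 and 245 CPM for B cell markers, 22.3 and 104 CPM for dendritic cell markers, 30.8 and 135 CPM for NK cell markers and 0.922 and 29.0 CPM for neutrophil markers. Macrophage and monocyte markers had medians of 22.1 and 84.7 CPM and plasma cell markers 827 and 1304 CPM. Their part in the differences between Tregs and Tcons, and in the differences of response, was not tested.

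The response itself was then compared between the cell types as a difference of differences, with both antibody arms together. With WT IL-2 no member was called by edgeR (12.2% of all genes were), and 1 of the 7, Junb, had an unadjusted p under 0.05 (-0.17 ± 0.07). With H16R 2 were called (40.6% of genes), Fos with a higher response in Tregs (0.35 ± 0.13, adjusted p = 0.0487) and Junb with a lower one (-0.23 ± 0.07, adjusted p = 0.0276). The Fos difference was lost without isotype H16R replicate 1 or 2, without MHC II block PBS replicate 1, and with scaling by library totals. With 3x 4 were called (46.5% of genes), all with a lower response in Tregs: Jun (-0.58 ± 0.11, adjusted p = 8.16e-04), Junb (-0.48 ± 0.07, adjusted p = 2.15e-04), Atf3 (-1.34 ± 0.30, adjusted p = 0.00264) and Jund (-0.22 ± 0.10, adjusted p = 0.0995), the last lost without any of 8 single mice. Fosb was called in none of the 3, with estimates from -0.15 to -0.05, an SE of 0.16 and, for 3x, a 95% interval of -0.40 to 0.29. The 3x value of Atf3 joins arms in which Tcons moved in opposite directions. A fit with a mean for each of the 8 Tcon groups was chosen after seeing the data. In it Atf3 changed with 3x by -1.49 ± 0.10 under isotype and 0.81 ± 0.10 under MHC II block, from 2 libraries a group.

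**Figure D4:**
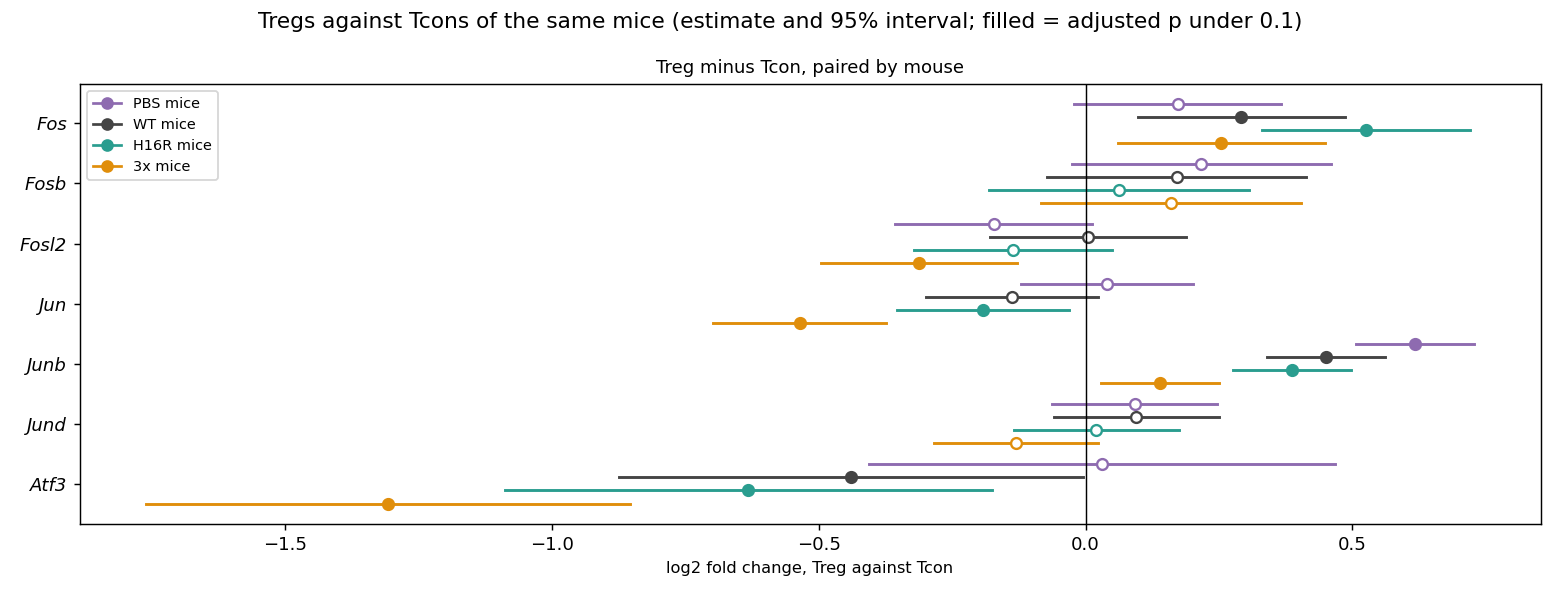
Log2 difference of each member between Tregs and Tcons of the same mice, both antibody arms together (horizontal axis, above 0 where higher in Tregs), by treatment: PBS (purple), WT IL-2 (dark grey), H16R (green) and 3x (orange). Points are edgeR estimates with 95% intervals, filled where the adjusted p was under 0.1. Junb was above 0 in all 4 treatments, from 0.14 to 0.62, and Atf3 was lowest with 3x at -1.31.

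In Tcons Atf3 depended on the antibody arm in a way that the fit over both arms did not show. It stood at 151 and 160.1 CPM in isotype PBS Tcons, 72.8 and 81.4 CPM with WT IL-2, 32.1 and 39.2 CPM with H16R and 53.7 and 54.5 CPM with 3x. Under MHC II block it stood at 43.9 and 48.5 CPM with PBS, 144 and 174 CPM with WT IL-2, 67.7 and 69.8 CPM with H16R and 82.2 and 84.7 CPM with 3x. PBS was the highest group of the isotype arm and the lowest of the block arm, without overlap in either. In a fit with a mean for each of the 8 Tcon groups, chosen after seeing the data, the interaction was 2.77 ± 0.15 for WT IL-2, 2.68 ± 0.15 for H16R and 2.30 ± 0.15 for 3x, with adjusted p-values of 2.37e-06, 4.16e-06 and 5.28e-06. Each rests on 2 libraries a group, and 12.8%, 8.45% and 18.3% of genes were called in these interactions. Mean sums of macrophage and monocyte markers (Lyz2, Csf1r, Adgre1, Cd14, Itgam, Fcgr1 and Cd68) ranked the Tcon groups as Atf3 did within each arm, but not across the arms. These markers summed to 105 to 115 CPM in isotype PBS Tcons and 28.7 to 29.0 CPM with H16R. Under block they summed to 34.0 to 35.6 CPM with PBS, 167 to 175 CPM with 3x and 319 to 523 CPM with WT IL-2. The block 3x Tcons thus had higher sums but less Atf3 than the isotype PBS Tcons. Neutrophil markers reached 253 to 324 CPM with WT IL-2 under block. The part of all these markers in the Atf3 result was not tested. The Treg against Tcon differences of Atf3, with both arms together, were -0.44 ± 0.20, adjusted p = 0.0783 with WT IL-2, -0.63 ± 0.22, adjusted p = 0.0171 with H16R and -1.31 ± 0.21, adjusted p = 5.83e-05 with 3x, beside the same shift of markers. The first was lost without the isotype WT mouse 1 or the MHC II block WT mouse 2, and the second without the MHC II block H16R mouse 1. In isotype Tregs the marker sum was 13.5 to 16.5 CPM with H16R and 16.1 to 90.8 CPM with PBS, where 3 of the 4 libraries held 26.6 CPM or less. Dendritic cell, NK cell and neutrophil marker sums were lower with H16R than with PBS there (5.91 to 8.43 against 23.9 to 48.4 CPM, 9.99 to 14.7 against 32.2 to 48.9 CPM, and 0.0822 to 0.243 against 4.28 to 41.8 CPM), and their part was not tested.

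**Figure D5:**
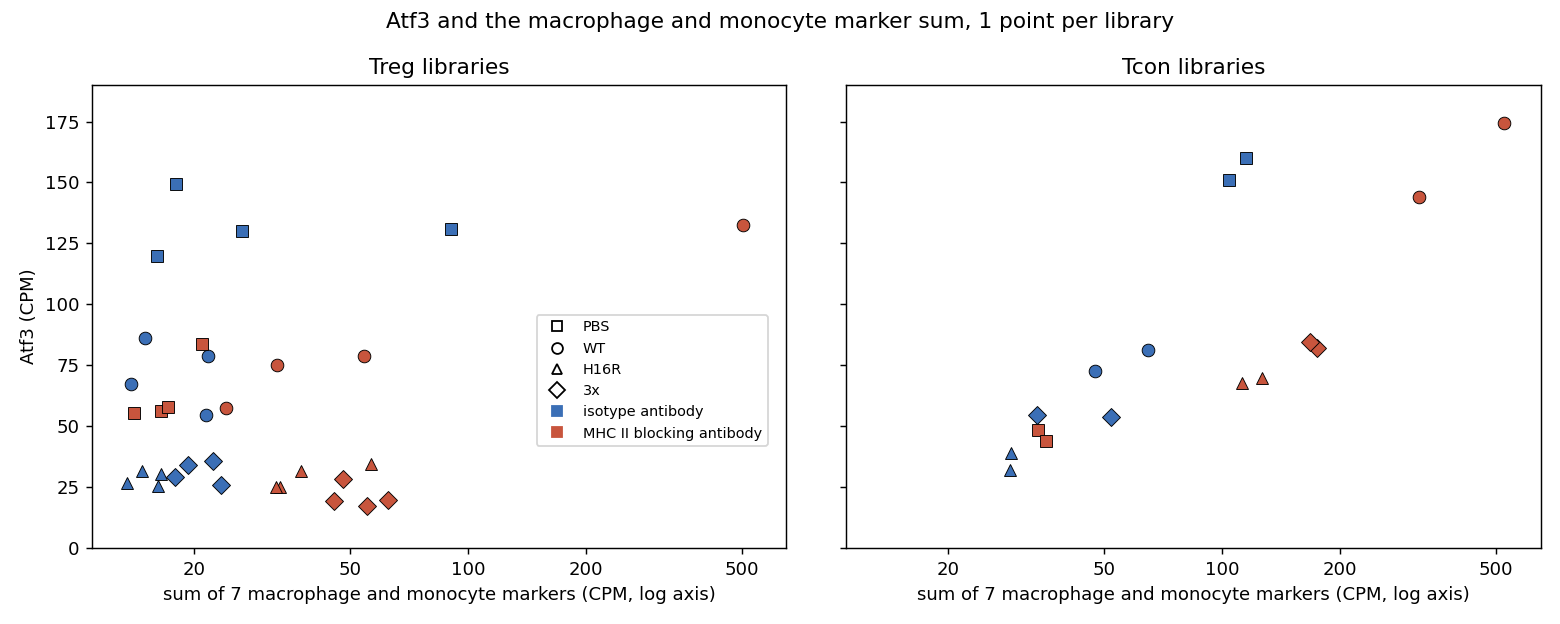
Atf3 in CPM (vertical axis, from 0) against the summed CPM of 7 macrophage and monocyte markers (horizontal log axis), 1 point per library, Tregs on the left and Tcons on the right. Color gives the antibody and shape the treatment. In Tcons the 2 MHC II block WT libraries, at 144 and 174 CPM of Atf3, had the highest marker sums, while the isotype PBS Tregs had 119.7 to 149 CPM of Atf3 at marker sums of 16.1 to 90.8 CPM.

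Across the 32 Treg libraries the members were correlated with each other to different degrees, as Pearson's r of log2 CPM, a description over libraries that share treatments. Fosb and Jun ran closest (0.96, and 0.74 after removing group means), while Fos and Fosl2 were the least alike (0.45). Fos followed Jun within groups (0.82) more than over all libraries (0.69). Among genes above a mean of 5 CPM, those most like each member were H2-Q6 (0.91), Dusp1 (0.90) and Btg2 (0.89) for Fos, and Klf4 (0.98), Jade2 (0.97) and Irf2bp2 (0.96) for Fosb. For Fosl2 they were Nr4a3 (0.95), Bhlhe40 (0.93) and Nr4a2 (0.91), 2 of them orphan nuclear receptors of the Nr4a group that antigen receptor signals induce. For Jun they were Rhob (0.97), Fosb and Mylip (0.96), and for Junb Atf4 (0.96), Ralgds (0.96) and Pnrc1 (0.93). For Jund they were Bex3 (0.92), Sdhaf1 (0.91) and Bap1 (0.90), and for Atf3 Hspa5 (0.95), Nr1d1 (0.94) and Rhob (0.93), Hspa5 encoding the endoplasmic reticulum chaperone BiP.

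Around the family, the other immediate early genes did not move as one with IL-2 but were mostly lower with MHC II block. Of 20 measured, 12, 12, 14 and 15 were lower with block in PBS, WT IL-2, H16R and 3x mice, and 1, 1, 0 and 2 were higher, beside the shares of all genes given above for these comparisons. The list's median log2 fold change was -0.33, -0.25, -0.32 and -0.48, beside the medians near 0 given above for all genes. In PBS mice Nr4a3 (-1.14), Nr4a1 (-0.75), Nr4a2 (-0.63) and the zinc finger factor Klf4 (-0.59) had the largest changes on the log2 scale. With IL-2 in isotype mice 5 of 20 were higher and 3 lower with WT IL-2, 6 higher and 8 lower with H16R, and 3 higher and 11 lower with 3x, where Klf4 (-1.11) and the antigen-induced factors Egr1 (-1.01) and Egr2 (-0.95) fell most. The shares of all genes higher and lower were 26% and 26.2%, 31.4% and 32.8%, and 31.3% and 32.3% in the same order. With 3x under block 13 were lower and 4 higher, beside 38.3% and 34.7% of all genes, Ier3 rising by 2.33 and Klf4 at -1.74.

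The genes of other bZIP proteins, possible dimer partners, were called in each direction. Of 21 measured, 5 were higher and 7 lower with H16R in isotype mice, beside 31.4% and 32.8% of all genes. With 3x 3 were higher and 6 lower in isotype mice, beside 31.3% and 32.3%, and 8 were higher and 6 lower under block, beside 34.7% and 38.3%. Maf, a regulator of effector Treg genes, rose with H16R (1.13) and 3x (1.01) in isotype mice and with 3x under block (1.54). Maff, a small Maf protein without a transactivation domain, fell in the same 3 comparisons (-0.98, -0.81 and -1.57), and Batf3 fell with both muteins in isotype mice (-1.37 and -1.68). In H16R mice 9 of the 21 were higher in Tregs than in Tcons and 3 lower, 12 in all beside the 70.4% of all genes called, with Nfil3 (2.24), Batf (1.56) and Crem (1.46) among the higher.

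Kinases and ternary complex factors upstream of the family had medians near 0. The median of the 22 genes lay between 0.00 and 0.06 over the 6 comparisons of IL-2 with PBS in Tregs, with 5 higher and 2 lower for WT IL-2, 6 and 2 for H16R and 7 and 4 for 3x under isotype, and 4 and 1, 10 and 7, and 10 and 8 under block. The shares of all genes called in those comparisons were 52.2%, 64.2%, 63.6%, 35.6%, 66.5% and 73%. With 3x under block Map2k3, a kinase of the p38 branch, rose by 1.00 and Hras by 0.77 on the log2 scale, in the comparison where all 7 AP-1 members fell. Of 9 cytokine genes with known AP-1 sites, 6 were higher and 2 lower with 3x under block, beside 34.7% and 38.3% of all genes, and 4 were higher and 3 lower with H16R in isotype mice, beside 31.4% and 32.8%. Il13 (5.41) and Il4 (3.30) were among those that rose with 3x under block. These ratios say nothing of level, since a gene could pass the filter with over 0.5 CPM in only 4 libraries. The summed level of the 9 genes was 161 to 198 CPM with PBS and 152 to 166 CPM with 3x under block, and 101 to 141 CPM with PBS and 105 to 107 CPM with H16R in isotype mice. Between the antibodies it was higher with block in all 4 treatments without overlap, at 152 to 166 against 84.0 to 107 CPM in 3x mice.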

How the data were processed

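RNA-seq libraries from 32 Treg and 16 Tcon samples were analysed. The authors aligned reads to the mouse genome with OSA in the Omicsoft Array Suite and quantified genes with the Omicsoft implementation of RSEM. They deposited expected counts per gene, of which 72.85% of the values above 0 were whole numbers, and FPKM. The strand setting of the counting is not given in the sources used here. The authors' tables of DESeq2 1.30.1 comparisons (log2 fold changes, statistics, p-values and adjusted p-values) were not used, and 0 columns held samples of another series. Genes were matched by symbol to GENCODE vM21, where 96.6% of the 53345 names were found.

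Expected counts were rounded, scaled by TMM and tested with edgeR 4.0.16 (quasi-likelihood test, R 4.3.3) over protein-coding genes above 0.5 CPM in at least 4 libraries of the fit, with Benjamini-Hochberg adjustment over all genes tested and a threshold of 0.1. CPM were taken on the sum of all expected counts. The 32 Treg libraries were fitted with 1 mean per group. Tregs and Tcons of the 16 mice with both were fitted with the mouse as a block, since the labels give both libraries to 1 mouse, and their deviations from group means correlated with a mean r of 0.254 (0.0980 to 0.513, 15 of 16 above 0.1). The 16 Tcon libraries were fitted with antibody arm and treatment. SE and 95% intervals come from the quasi-likelihood F statistic. The fits were tested on simulated data. No library pair of a group agreed within counting noise.

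Alternatives were other scalings, DESeq2 1.42.0, limma 3.58.1 on log2(FPKM + 1) and log2(FPKM + 0.1), other gene filters, thinned libraries, other designs and leaving out each library. The members and lists were chosen with earlier results of these data known. Genes of each list were named by the largest absolute change among those called, at most 4 per comparison. The genes most like a member were the 3 with the highest Pearson's r. Sequences are RefSeq promoters in GRCm38.p6, and all 7 members matched by symbol.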

Additional observations from a re-analysis of the deposited data

Results flagged for a closer look

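Within groups of 4 Treg libraries, 1 library stood far from its group in 4 of the 56 combinations of member and group, and chance alone gives about 1 in 20. Fosb was 2180 CPM in isotype PBS replicate 1, with the others at 2566 to 2582 CPM, and 849 CPM in isotype 3x replicate 1, with the others at 1122 to 1155 CPM. Jun was 1681 CPM in MHC II block 3x replicate 2, against 1268 to 1306 CPM. Atf3 was 83.6 CPM in MHC II block PBS replicate 3, against 55.6 to 58.0 CPM.

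IL-2 effects that differed between the antibody arms in Tregs, as log2 fold change under MHC II block minus isotype by edgeR's interaction test, were those of WT IL-2 on Jun (0.45) and Atf3 (1.33), of H16R on Fos (-0.37), Fosl2 (0.62) and Atf3 (1.07), and of 3x on Fos (-0.42) and Fosb (-0.46). The members called were 2, 3 and 2 of 7 in the order WT IL-2, H16R and 3x, beside 19.6%, 19.1% and 39% of all genes. The Fosl2 difference (adjusted p = 0.0814) was lost when any of several single libraries was left out. In Tcons, in the fit chosen after seeing the data with 2 libraries a group, the effects that differed were those of WT IL-2 on Jun (0.51) and Atf3 (2.77), of H16R on Atf3 (2.68) and of 3x on Fos (-0.40) and Atf3 (2.30). The shares of all genes called there were 12.8%, 8.45% and 18.3%. Both cell types thus showed Atf3 effects that were higher under block with WT IL-2 and H16R, with the marker values given beside Atf3.

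IL-2 effects that differed between Tregs and Tcons of the same mice, as Treg minus Tcon with both antibody arms together, were those of H16R on Fos (0.35) and Junb (-0.23) and of 3x on Jun (-0.58), Junb (-0.48), Jund (-0.22) and Atf3 (-1.34). With H16R 2 of 7 members were called and with 3x 4 of 7, beside 40.6% and 46.5% of all genes. The Jund value (adjusted p = 0.0995 by edgeR) was lost without any of several single mice, and the Fos value with scaling by library totals. Without the mouse as a block 1 call was left, with 3x.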

How the results depend on the processing

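Over 7882 recomputed values of a member in a comparison, none changed direction in a called result, 135 lost and 192 gained their call. Calls on members numbered 32 of 42 for IL-2 against PBS in Tregs (31 to 34 when single libraries were left out), 21 of 28 for MHC II block against isotype (19 to 21), 25 of 42 between molecules (23 to 29) and 7 of 21 for differences between arms (6 to 8). Counts for Tregs against Tcons were 13 of 28 (12 to 16 without single mice), 6 of 21 for the difference in effect (4 to 8), 6 of 21 for IL-2 in Tcons (4 to 10, the highest without isotype WT replicate 2 or isotype 3x replicate 2) and 2 of 7 for block in Tcons (2 to 3). In the order of the Treg results, the shares of all genes called ranged from 35.6% to 73%, 14.1% to 54.1%, 11.5% to 68.7% and 19.1% to 39%. For Tregs against Tcons they ranged from 50.3% to 71.2%, and for the difference in effect from 12.2% to 46.5%. For IL-2 in Tcons they ranged from 9.88% to 31.1%, and for block in Tcons the share was 28.9%. Without the mouse block, Tregs against Tcons gave 8 calls and the difference in effect 1. DESeq2 gave 11 calls for IL-2 in Tcons, and a mean for each of the 8 Tcon groups, chosen after seeing the data, gave 13, and 4 for block in Tcons. With the replicate number as a block, counts in Tregs were 33, 20, 25 and 7, and in Tcons 5 and 2. The number did not pair the Treg samples (mean r of deviations 0.00553 over 112 pairs, 12 of 32 libraries closest to their own number), so it was not used in the report. Groups held 4 mice in Tregs and 2 in Tcons, and what group size did to precision was not tested. With libraries thinned to the smallest total, calls numbered 34, 20, 25 and 6 in Tregs, and 9 for IL-2 in Tcons.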
